A study of Orbilia oligospora with 12 samples.

Results

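A set of 8 genes of the beta-glucan layer of the fungal cell wall was followed in Arthrobotrys oligospora (named Orbilia oligospora in the labels), a soil fungus that catches nematodes in adhesive networks of its own hyphae. They are the glucan synthase FKS1 (AOL_s00054g491), the glucanosyltransferases gel3 (AOL_s00054g226) and gas2 (AOL_s00043g350), the wall protein ecm33 (AOL_s00075g5), a glucan-binding protein (AOL_s00083g252) with the glycosyl transferase next to it (AOL_s00083g253), a glucanase (AOL_s00170g61) and a glucosidase (AOL_s00006g283). They were picked by locus, 8 of the 11479 genes in the expression table, with earlier results of these libraries in view. FKS1 and the glucosidase were picked for their strain difference at 0 h, and the values behind the other 6 choices are not recorded, so every comparison of the 8 is given as a description, without a p-value. All 8 passed the filter on low values, at least 1 TPM in at least 3 libraries.

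Hyphal RNA was sequenced in 4 groups of 3 libraries: the strain labelled ΔAorlmA (named as a deletion of the gene for the MADS-box transcription factor AoRLMA) at 48 h, the wild type at 48 h, the labelled ΔAorlmA strain at 0 h and the wild type at 0 h. The treatment label of every library names nematode extract, which induces traps, and the growth protocol gives potato dextrose agar at 28 °C for 5 days. The labels do not say whether the mutant is 1 clone or whether libraries came from separate cultures, and the growth protocol names another mutant, ΔAosnf1. Where p-values are given for other genes, they measure the spread between these libraries, which may be technical.

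The wall of filamentous fungi rests on a mesh of beta-1,3-glucan chains. A plasma membrane synthase spins the chains out of UDP-glucose, transferases of the GAS and GEL family cut and rejoin them into longer and branched chains, other surface proteins anchor or bind the mesh, and glucanases and glucosidases loosen it during growth, branching and separation of cells. In Saccharomyces cerevisiae the cell wall integrity pathway acts through the MADS-box factor Rlm1 on genes of wall synthesis and repair.

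The libraries held 48.5 to 61.1 M clean reads, and the steps of the low values correspond to 12.3 to 15.7 M fragments assigned to genes. The gene taken here as the match to RLM1, AOL_s00078g125, was not lost in the labelled ΔAorlmA libraries. A search of the Swiss-Prot names for RLM1 did not return it, so whether it is the deleted locus is not known. At 48 h AOL_s00078g125 averaged 97.6 ± 10.7 TPM in the labelled ΔAorlmA libraries against 35.1 ± 8.92 TPM in the wild type. The 0 h means were 117 ± 45.8 TPM in labelled ΔAorlmA against 36.2 ± 5.24 TPM in the wild type (SD, n = 3 each). The strain is therefore called by its label throughout. The first labelled ΔAorlmA library at 0 h correlated less with its own group (mean r 0.903) than with a labelled ΔAorlmA library at 48 h (0.924), and the first labelled ΔAorlmA library at 48 h less with its own group (0.932) than with a wild-type library at 48 h (0.944). The median log2 difference of all 9355 genes tested was -0.11 between strains at 48 h, -0.56 between strains at 0 h, 0.14 between times in the labelled ΔAorlmA strain and -0.25 between times in the wild type, so a difference of the 8 genes is to be read against these shifts. Differences are given on the scale log2(TPM + 1), with the standard error (SE) of a limma fit over all 12 libraries, which understates the change of genes with low TPM. A fixed list of 9 genes annotated as hydrophobin or as spore or conidia specific had none at 0 in every library. It includes matches to the yeast sporulation-specific proteins SPO7, SPO71 and SPO5, so it is not a list of conidia genes alone. Its sum was 496 to 2232 TPM in labelled ΔAorlmA libraries and 599 to 1302 TPM in the wild type at 48 h. At 0 h it was 218 to 909 TPM in labelled ΔAorlmA libraries and 1960 to 3029 TPM in the wild type. Most of that sum at 0 h in the wild type was 1 rodlet (hydrophobin) gene, AOL_s00006g570, with 221.7 ± 183 TPM in labelled ΔAorlmA against 2449 ± 578 TPM in the wild type at 0 h (-3.96, limma adjusted p = 0.00868). The list did not move one way. Of its 7 tested genes 1 rose and 3 fell between strains at 0 h, and 2 rose and 1 fell at 48 h. Over all genes tested 8.87% passed as higher and 33.8% as lower at 0 h, and 9.2% and 14.7% at 48 h. The conidiation-specific protein match AOL_s00079g472 was higher in labelled ΔAorlmA at 0 h, with 267 ± 219 TPM against 30.4 ± 18.2 TPM in the wild type (2.95, adjusted p = 0.0106), and at 48 h (2.49, adjusted p = 0.0345). The part of conidia or other spores in the results below was not tested. In bulk RNA fewer cells of a kind and less RNA per cell cannot be told apart.

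**Figure D1:**
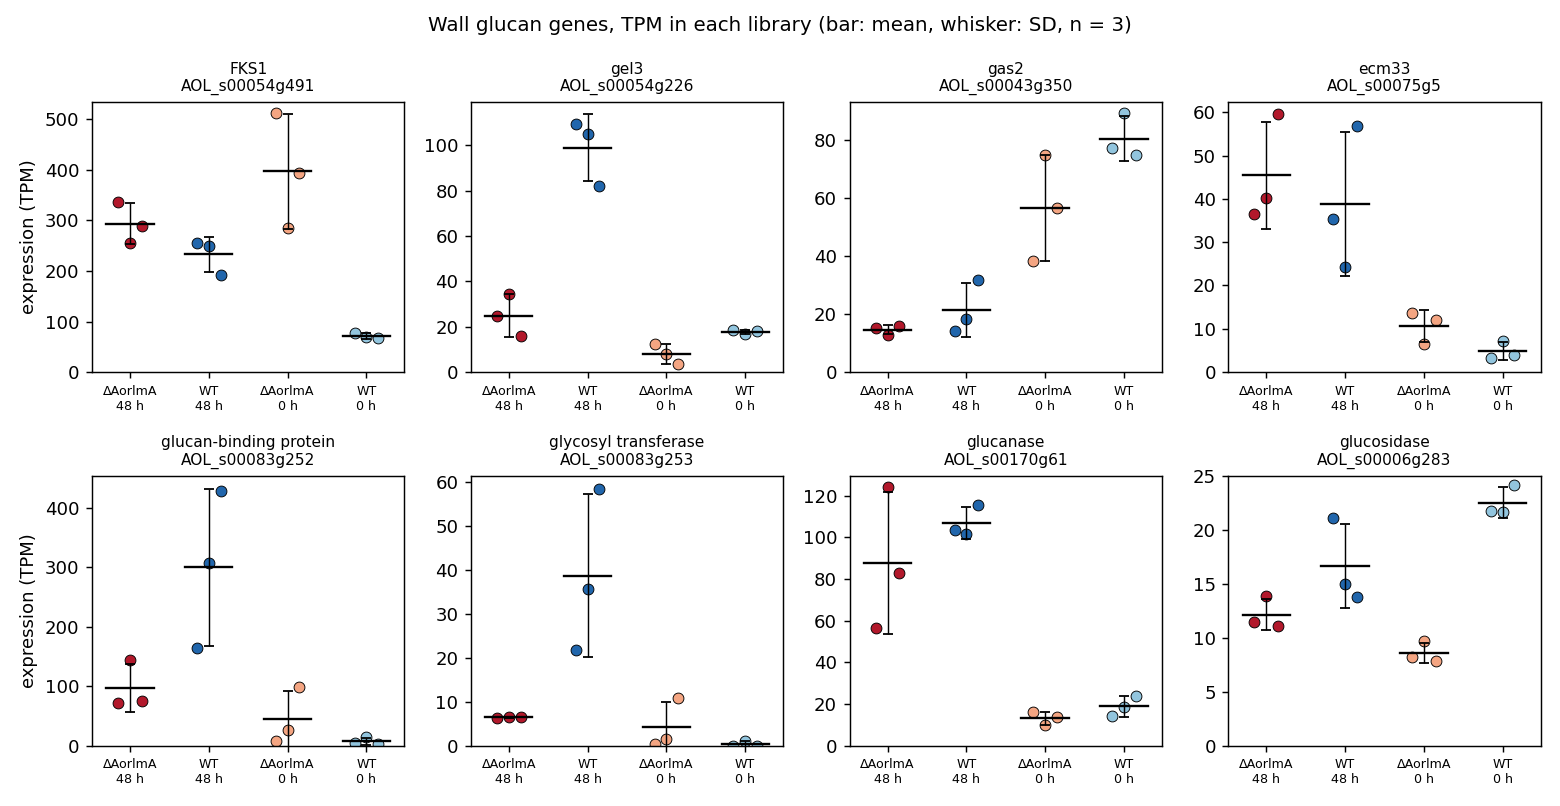
TPM of the 8 wall glucan genes in each library (points), with the group mean (bar) and SD (whisker, not drawn under 0; n = 3) for labelled ΔAorlmA at 48 h, wild type at 48 h, labelled ΔAorlmA at 0 h and wild type at 0 h. FKS1 was low only in the 0 h wild type (67.8 to 77.6 TPM), and in the wild type the 48 h and 0 h libraries did not overlap in any panel.

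FKS1, the catalytic subunit of the beta-1,3-glucan synthase, was the one gene in the table with the glucan synthase domain, and its coding length of 5757 bases is the greatest of the 8. At 48 h the values were 337, 255 and 289.7 TPM in labelled ΔAorlmA, against 256, 250.1 and 192 TPM in the wild type. At 0 h the values were 512, 285 and 394 TPM in labelled ΔAorlmA, against 77.6, 69.2 and 67.8 TPM in the wild type. The libraries of the 0 h wild type stood below all the others. By group mean the order was labelled ΔAorlmA at 0 h (397 ± 114 TPM), labelled ΔAorlmA at 48 h (294 ± 41.1 TPM), wild type at 48 h (233 ± 35.1 TPM) and wild type at 0 h (71.5 ± 5.31 TPM; SD, n = 3 each). Neighbours in that order overlapped, except that no 48 h wild-type library came down to the 0 h wild type. The strain difference at 0 h was 2.42 (SE 0.25) and that at 48 h was 0.34 (SE 0.25). The 48 h minus 0 h difference was -0.40 (SE 0.25) in the labelled ΔAorlmA strain and 1.68 (SE 0.25) in the wild type. Among the 9355 genes tested, FKS1 ranked 456 by mean TPM in the labelled ΔAorlmA libraries at 0 h and 2526 in the wild type at 0 h.

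Next to FKS1 lies AOL_s00054g492, matched to GAS1, a transferase that lengthens glucan chains. It averaged 653 ± 123 TPM in labelled ΔAorlmA against 701 ± 7.43 TPM in the wild type at 48 h, whereas the 0 h means were 839 ± 373 TPM in labelled ΔAorlmA against 573 ± 84.6 TPM in the wild type (SD, n = 3 each). It passed the limma test in none of the comparisons, with adjusted p from 0.207 to 0.79 over the 4 pairwise ones. Its strain difference at 0 h was 0.47, beside 2.42 for FKS1, and the difference between the 2 genes was not tested.

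The transferase gel3, named after a family 72 enzyme of Aspergillus fumigatus, was higher in the 48 h wild type than in any other group. In the 48 h libraries it had 24.6, 34.4 and 15.8 TPM in labelled ΔAorlmA, against 109.5, 105.0 and 82.0 TPM in the wild type. In the 0 h libraries it had 12.4, 7.73 and 3.62 TPM in labelled ΔAorlmA, against 18.4, 16.9 and 17.9 TPM in the wild type. Each labelled ΔAorlmA library was below each wild-type library of its time. The labelled ΔAorlmA mean was 24.9 ± 9.32 TPM against 98.8 ± 14.8 TPM in the wild type at 48 h, whereas the 0 h means were 7.93 ± 4.41 TPM in labelled ΔAorlmA against 17.7 ± 0.754 TPM in the wild type (SD, n = 3 each). The strain difference was -2.0 (SE 0.38) at 48 h and -1.20 (SE 0.38) at 0 h, where it became -0.70 under median-of-ratios scaling. Both strains had more gel3 RNA at 48 h than at 0 h, by 1.60 (SE 0.38) in labelled ΔAorlmA and 2.41 (SE 0.38) in the wild type. The difference between those responses, -0.80 (SE 0.54), was -0.44 without the first labelled ΔAorlmA library at 0 h and -1.21 without the third.

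The related transferase gas2, named after a Schizosaccharomyces pombe enzyme, had the opposite time course. At 48 h it had 15.2, 12.8 and 15.9 TPM in labelled ΔAorlmA, against 14.0, 18.3 and 31.8 TPM in the wild type. At 0 h it had 38.4, 74.7 and 56.4 TPM in labelled ΔAorlmA, against 77.25, 89.2 and 74.7 TPM in the wild type. In both strains every 48 h library was below every 0 h library, while the strains overlapped at either time. The 48 h minus 0 h difference was -1.83 (SE 0.33) in labelled ΔAorlmA and -1.94 (SE 0.33) in the wild type, and the responses differed by 0.10 (SE 0.46). The strain difference was -0.44 (SE 0.33) at 48 h and -0.55 (SE 0.33) at 0 h, beside a median of -0.56 over all genes, and under median-of-ratios scaling the 0 h value was 0.00.

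The family 72 transferases number 5, and gel3 and gas2 were not the abundant ones. GAS1 (above) and the GAS4 match AOL_s00043g339 lay between 306 and 1267 TPM in all 12 libraries, whereas gel3 and gas2 never passed 109.5 TPM. AOL_s00043g339 rose by 0.78 in labelled ΔAorlmA at 0 h (limma adjusted p = 0.0263), with 605 ± 118 TPM against 349 ± 37.5 TPM in the wild type, and rose between 0 h and 48 h in the wild type by 0.66 (adjusted p = 0.0463), a call that ended when any 1 wild-type library was left out. The gel1 match AOL_s00173g83 fell by 1.25 in labelled ΔAorlmA at 0 h (adjusted p = 0.0344), with 4.17 ± 2.22 TPM against 10.99 ± 3.61 TPM in the wild type. This call was lost with both other scalings and without any of 4 single libraries. The 0 h strain call of AOL_s00043g339 is not shown to be stable (see the glucan lists below). No family 72 gene outside the 8 passed the strain test at 48 h.

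**Figure D2:**
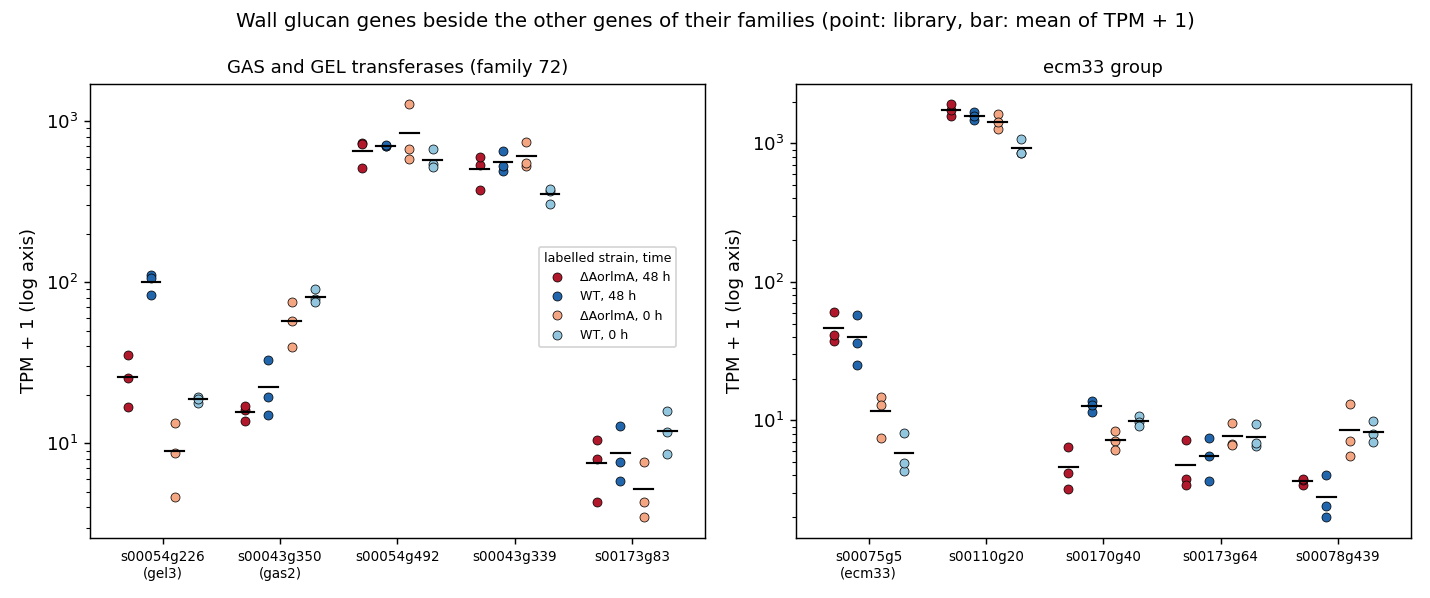
TPM + 1 on a log axis for the 5 transferases of family 72 (left) and the 5 genes of the ecm33 group (right), with a point per library and a bar for the group mean, groups ordered labelled ΔAorlmA 48 h, wild type 48 h, labelled ΔAorlmA 0 h and wild type 0 h. The gel3, gas2 and ecm33 genes sit well under the most abundant gene of their families, and differ more between times.

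The gene called ecm33 is matched to a GPI-anchored wall protein of S. pombe that yeasts need for an ordered wall. At 48 h the values were 36.5, 40.2 and 59.6 TPM in labelled ΔAorlmA, against 35.3, 24.3 and 56.8 TPM in the wild type. At 0 h the values were 13.7, 6.48 and 11.95 TPM in labelled ΔAorlmA, against 3.34, 7.16 and 3.95 TPM in the wild type. The strains overlapped at both times, and each strain's 48 h libraries were all above its 0 h libraries. The 48 h minus 0 h difference was 2.01 (SE 0.39) in labelled ΔAorlmA and 2.75 (SE 0.39) in the wild type, and these responses differed by -0.73 (SE 0.56). The strain difference was 1.01 (SE 0.39) at 0 h and 0.27 (SE 0.39) at 48 h, where leaving out the second wild-type library brought it to -0.01. Quantile normalization raised the 0 h difference to 1.69.

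The other 4 genes of the ecm33 group were tested in every comparison. The most abundant, AOL_s00110g20, averaged 1733 ± 175 TPM in labelled ΔAorlmA against 1579 ± 102 TPM in the wild type at 48 h, whereas the 0 h means were 1432 ± 180 TPM in labelled ΔAorlmA against 923 ± 123 TPM in the wild type (SD, n = 3 each). It rose between 0 h and 48 h in the wild type by 0.78 (limma adjusted p = 0.0137), a call lost without the second wild-type library at 0 h. It was also higher in labelled ΔAorlmA at 0 h (0.63, adjusted p = 0.0386), a call not shown to be stable (see the glucan lists below). AOL_s00170g40 fell in labelled ΔAorlmA at 48 h, to 3.59 ± 1.66 TPM against 11.8 ± 1.23 TPM in the wild type (-1.53, adjusted p = 0.00743), under every alternative tried. AOL_s00078g439 fell between times in the wild type by 1.60 (adjusted p = 0.00339), the opposite direction to AOL_s00075g5, and lost this call under quantile normalization. It also fell in labelled ΔAorlmA by 1.15 (adjusted p = 0.0384), a call lost in 10 alternatives, among them the replicate block. The fourth, AOL_s00173g64, passed in no comparison and stayed between 2.43 and 8.60 TPM.

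The glucan-binding protein AOL_s00083g252, 237 residues long by its coding length, carries a family 16 glycoside hydrolase domain, and its best annotated match is a recognition protein of shrimp. Its role in fungi is not annotated. In the 48 h libraries it had 71.8, 144 and 74.8 TPM in labelled ΔAorlmA, against 164, 307 and 428 TPM in the wild type. In the 0 h libraries it had 7.48, 27.2 and 98.8 TPM in labelled ΔAorlmA, against 4.80, 14.0 and 3.24 TPM in the wild type. At 48 h each labelled ΔAorlmA library was below each wild-type library, and at 0 h the groups overlapped, with the third labelled ΔAorlmA library far above the other two. In the wild type the mean was 299.7 ± 133 TPM at 48 h and 7.34 ± 5.80 TPM at 0 h, a ratio of 40.85 and a difference of 5.28 (SE 0.74), which ranked 2 among the 9355 genes tested. In labelled ΔAorlmA the means were 96.7 ± 40.6 TPM at 48 h and 44.5 ± 48.1 TPM at 0 h, a difference of 1.69 (SE 0.74) between groups that overlapped. That difference was 0.80 without the first labelled ΔAorlmA library at 0 h and 2.58 without the third. The strain difference was -1.59 (SE 0.74) at 48 h and 2.01 (SE 0.74) at 0 h, where it was 1.11 without the third labelled ΔAorlmA library.

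The adjacent gene AOL_s00083g253 encodes a glycosyl transferase of 672 residues with the domain Glyco_trans_2_3 and no Swiss-Prot match, so its product is not known. At 48 h it had 6.44, 6.67 and 6.51 TPM in labelled ΔAorlmA, against 21.9, 35.8 and 58.6 TPM in the wild type. At 0 h it had 0.40, 1.51 and 10.8 TPM in labelled ΔAorlmA, against 0, 1.11 and 0.06 TPM in the wild type. The 48 h labelled ΔAorlmA libraries lay closer together than those of any other group and were all below the 48 h wild type. The low end rests on few reads: the 0 h wild-type values of AOL_s00083g253 stand for about 0, 36.9 and 2.08 fragments. In the wild type the 48 h minus 0 h difference was 4.82 (SE 0.63), rank 4 of 9355, and in labelled ΔAorlmA it was 1.12 (SE 0.63), or 0.47 without the first 0 h library and 2.01 without the third. The strain difference was -2.29 (SE 0.63) at 48 h and 1.40 (SE 0.63) at 0 h, which was 0.52 without the third labelled ΔAorlmA library. A pseudocount of 0.1 in place of 1 brought the wild-type time difference to 7.06 and the 0 h strain difference to 2.94.

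Both genes of the pair followed each other across libraries, with a Pearson r of 0.97 over the 12 libraries, which fall into 4 groups and share their preparation. The binding protein had 7.32 to 54 times the TPM of the transferase in the libraries where the transferase was above 0. The next locus, AOL_s00083g254, also rose in the wild type between 0 h and 48 h (39.4 ± 45.6 TPM at 48 h against 0.347 ± 0.354 TPM at 0 h, 4.32, limma adjusted p = 0.00286) and was higher in labelled ΔAorlmA at 0 h (3.79, adjusted p = 0.00829). AOL_s00083g255 showed 1.74 (adjusted p = 0.00795) and 1.31 (adjusted p = 0.0343) in those comparisons. On the other side, AOL_s00083g251 passed in none (adjusted p from 0.371 to 0.889), and AOL_s00083g250 did not pass the filter.

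The same arrangement, a glucan-binding protein gene beside a Glyco_trans_2_3 gene without a Swiss-Prot match, occurs at 2 more places, AOL_s00083g270 with AOL_s00083g269 and AOL_s00169g78 with AOL_s00169g77. These pairs were noticed in the annotation after values had been seen. The gene AOL_s00083g270 averaged 157 ± 52.7 TPM in labelled ΔAorlmA and 348 ± 60.5 TPM in the wild type at 48 h (-1.19, limma adjusted p = 0.0332), and 89.5 ± 43.8 TPM in labelled ΔAorlmA against 166 ± 18.9 TPM in the wild type at 0 h (-1.01, adjusted p = 0.0411). It was thus lower in TPM in labelled ΔAorlmA at both times. At 0 h the median over all genes was -0.56, and values of AOL_s00083g270 under other scalings are not given. Its neighbour AOL_s00083g269 had 73.2 ± 37.9 TPM in labelled ΔAorlmA and 167 ± 50.03 TPM in the wild type at 48 h (-1.30, adjusted p = 0.0563) and did not pass. Between times the wild type rose by 1.05 for AOL_s00083g270 (adjusted p = 0.0309), beside 5.28 for AOL_s00083g252. The third pair stayed low, at 0.55 to 4.6 TPM for AOL_s00169g78 and 0.36 to 3.81 TPM for AOL_s00169g77, and passed in no comparison. Within-pair r was 0.90 and 0.91 over the 12 libraries. Of all 11 genes with the Glyco_trans_2_3 domain, 7 match chitin synthases. Of the 10 besides the followed one, 6 rose and 0 fell in labelled ΔAorlmA at 0 h, and 3 rose and 0 fell at 48 h. Of all genes tested, 8.87% passed as higher and 33.8% as lower at 0 h, and 9.2% and 14.7% at 48 h. The family was added after values were seen, and its counts under other scalings are not given, so nothing is read from them.

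**Figure D3:**
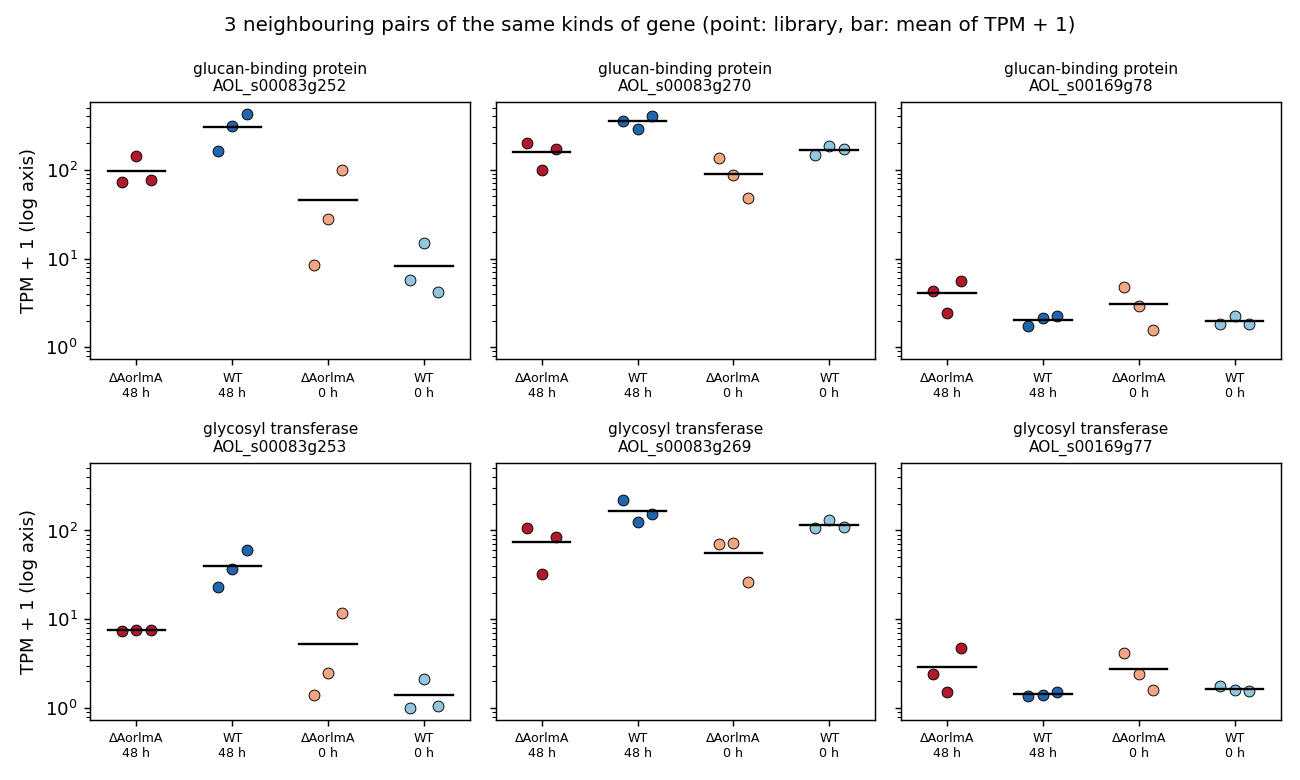
TPM + 1 on a log axis for 3 neighbouring pairs, the glucan-binding proteins above and the glycosyl transferases below, with a point per library and a bar for the group mean. In the left pair the 48 h wild type is highest and the 0 h wild type lowest, the middle pair is abundant in all groups, and the right pair stays under 5 TPM.

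The glucanase AOL_s00170g61, the one gene with a family 64 domain, is matched to a bacterial enzyme that cuts beta-1,3-glucan inside the chain. At 48 h the values were 56.4, 124 and 83.01 TPM in labelled ΔAorlmA, against 103.5, 101.4 and 116 TPM in the wild type. At 0 h the values were 16.1, 9.88 and 13.9 TPM in labelled ΔAorlmA, against 14.1, 18.8 and 23.9 TPM in the wild type. Every 48 h library was above every 0 h library, and the strains overlapped at both times. The 48 h minus 0 h difference was 2.59 (SE 0.32) in labelled ΔAorlmA and 2.46 (SE 0.32) in the wild type, and their difference of 0.13 (SE 0.45) changed sign with the scaling. The strain difference was -0.35 (SE 0.32) at 48 h and -0.48 (SE 0.32) at 0 h, near the median shift of all genes there, and it was 0.05 under median-of-ratios scaling and 0.06 under quantile normalization.

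The glucosidase AOL_s00006g283, matched to the exo-glucanase EXG1 of the plant pathogen Cochliobolus carbonum, was a low gene with small differences between times. In the 48 h libraries it had 11.5, 13.9 and 11.1 TPM in labelled ΔAorlmA, against 21.1, 15 and 13.8 TPM in the wild type. In the 0 h libraries it had 8.27, 9.69 and 7.87 TPM in labelled ΔAorlmA, against 21.8, 21.6 and 24.2 TPM in the wild type. At 0 h the labelled ΔAorlmA libraries were all below the wild type, by 1.3 (SE 0.26), and at 48 h the groups overlapped (-0.40, SE 0.26). The 0 h difference was -0.78 under median-of-ratios scaling and -0.82 under quantile normalization. Between times it was 0.45 (SE 0.26) in labelled ΔAorlmA and -0.44 (SE 0.26) in the wild type, opposite directions in which neither pair of groups overlapped. Of the 8 other genes with the same EXG1 match, 6 passed the filter. None of these 6 passed a strain test, which 23.9% of all genes tested passed at 48 h and 42.7% at 0 h. Between times in the wild type 2 of them fell, where 28.7% of all genes passed as lower. AOL_s00078g574 fell between 0 h and 48 h in both strains, by 1.19 in labelled ΔAorlmA (limma adjusted p = 0.0335) and 1.07 in the wild type (adjusted p = 0.0267). The call in labelled ΔAorlmA was lost without any of 4 single libraries of that strain.

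**Figure D4:**
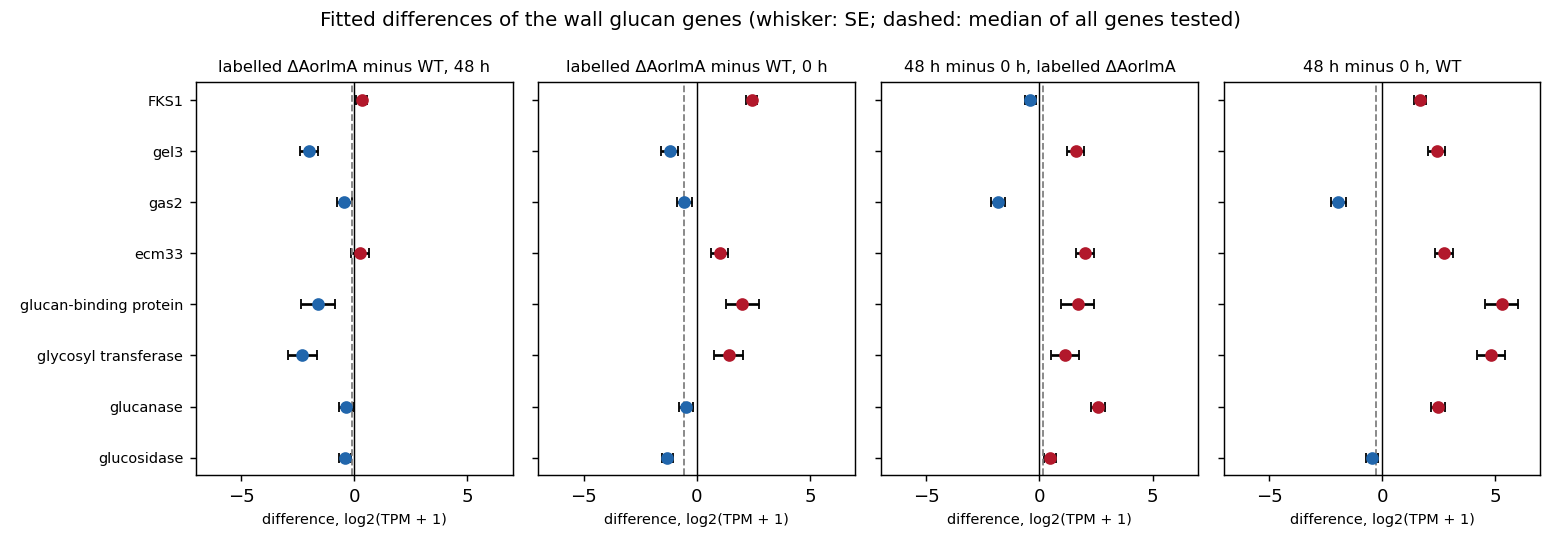
Fitted log2(TPM + 1) differences of the 8 genes with their SE for the strain comparisons at 48 h and 0 h and the time comparisons in labelled ΔAorlmA and the wild type, with the median of all genes tested as a dashed line. In the wild type 6 genes lie right of 1.5, and gas2 lies at -1.94.

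Set side by side, and as a description only, the wild-type time comparison held the most differences, as it did over all genes tested. In it 6 of the 8 genes were higher and 1 lower past the threshold of adjusted p under 0.05. There 17.6% of all genes tested passed as higher and 28.7% as lower (46.4% in all). In labelled ΔAorlmA 3 of the 8 were higher and 1 lower between times. There 13% of all genes passed as higher and 8.52% as lower (21.5% in all). Between strains at 0 h 2 were higher and 2 lower, where 8.87% passed as higher and 33.8% as lower (42.7% in all). Between strains at 48 h 0 were higher and 2 lower, where 9.2% passed as higher and 14.7% as lower (23.9% in all). The difference of the responses passed for 2 genes, both negative, FKS1 (-2.08, SE 0.36) and the glycosyl transferase (-3.69, SE 0.89), where 3.23% of all genes passed as positive and 1.2% as negative (4.43% in all). The background splits depended on the scaling. Between times in the wild type 1650 of all genes passed as higher and 2688 as lower, which became 2280 and 2174 under median-of-ratios scaling and 2273 and 1989 under quantile normalization. In labelled ΔAorlmA 1212 and 797 became 954 and 1125 under median-of-ratios scaling and 981 and 912 under quantile normalization. Between strains at 0 h 830 and 3160 became 1341 and 1033, or 1249 and 1568, in the same order of scalings. The difference of the responses had 302 positive and 112 negative genes, which turned to 128 and 215, or 115 and 215. The choice of genes drew on these comparisons, so nothing is read from their shares. By overlap, 8 of the 8 genes separated 48 h from 0 h in the wild type (65.5% of all genes), 5 did so in labelled ΔAorlmA (31.6%), 3 separated the strains at 0 h (53.7%) and 3 at 48 h (47.6%). The wild-type time set was the same 7 genes under every alternative tried, which for genes chosen with these results known is a description and no support. The 0 h strain set held 2 to 6 genes depending on the setting, always with FKS1 and the glucosidase. These 2 were picked for their strain difference at 0 h, so their constant place supports nothing. In the 0 h set gel3 gave way to ecm33 under median-of-ratios scaling, under quantile normalization and without the second 0 h wild-type library. Both gel3 and the binding protein dropped out without the third labelled ΔAorlmA library, without the first or the third wild-type library and when only those groups were fitted, and the binding protein alone was lost in further settings. In the labelled ΔAorlmA time set gel3 was lost without the second 48 h library or when only those groups were fitted, and the binding protein and transferase came in without the third 0 h library. At 48 h between strains the transferase was lost under quantile normalization, with a pseudocount of 0.1 and without the second or the third library of either strain. The FKS1 difference of responses lost its call without the second or the third wild-type library at 48 h or the second at 0 h. The transferase lost its call there in those settings, under both other scalings, with a pseudocount of 0.1, without the filter and without several other single libraries.

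The comparisons share groups: the 0 h wild type enters both the 0 h strain and the wild-type time comparison. For the 8 genes the median log2 difference was -0.42 between strains at 48 h, 0.26 between strains at 0 h, 1.36 between times in labelled ΔAorlmA and 2.43 between times in the wild type, beside medians of -0.11, -0.56, 0.14 and -0.25 over all genes.

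The authors' deposited table, which gives calls without sizes, lists 7 of the 8 genes and leaves out the glucosidase. Calls in the authors' deposited table covered 7 genes between times in the wild type, 4 between times in labelled ΔAorlmA, 4 between strains at 0 h and 3 between strains at 48 h. At 0 h the authors' deposited table calls FKS1, ecm33, the binding protein and the transferase up in the labelled ΔAorlmA strain, and not gel3, which the limma fit calls lower. The authors' deposited table gives gas2 and the glucanase as up at 0 h without a call, whereas the fit gives -0.55 and -0.48.

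Among annotated genes, the likeness to each of the 8 was measured as the Pearson r of log2(TPM + 1) over the 12 libraries, with 6942 annotated genes compared. The pattern closest to FKS1 was that of AOL_s00097g487, a gene with an AMP-binding domain (r = 0.96), followed by AOL_s00215g460 with a fungal transcription factor domain (0.96) and AOL_s00004g245, matched to a G1/S cyclin (0.95). For gel3 it was the rad5 match AOL_s00004g429 (0.97), for gas2 an oxidoreductase, AOL_s00007g325 (0.96), and for ecm33 a zinc-regulated transporter, AOL_s00110g226 (0.97). The glucanase was closest to AOL_s00079g45, a choline transporter-like gene (0.98), and the glucosidase to AOL_s00007g201, with a DAO oxidase domain (0.97). The binding protein and its neighbouring transferase were each other's closest match (0.97), and the NAP1-related AOL_s00054g118 reached 0.92 with both.

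The other glucan genes were taken from lists matched in the annotation. Counts of these lists and of the integrity list below stand beside the shares of all genes tested. Between strains 9.2% passed as higher and 14.7% as lower at 48 h, and 8.87% and 33.8% at 0 h. Between times 13% and 8.52% passed in labelled ΔAorlmA, and 17.6% and 28.7% in the wild type. These shares moved with the scaling (above), and counts of each single list under other scalings are not given. Of 6 genes of synthesis, all tested, 1 rose and 0 fell between strains at 48 h, 0 rose and 1 fell at 0 h, 1 rose and 0 fell between times in labelled ΔAorlmA, and 1 rose and 1 fell in the wild type. AOL_s00215g548, matched to a regulator of glucan synthesis in Neurospora, rose between times in both strains, with 89.5 ± 13.1 TPM at 48 h against 34.4 ± 15.6 TPM at 0 h in labelled ΔAorlmA (1.43, limma adjusted p = 0.00742) and 67.2 ± 4.67 TPM at 48 h against 29.4 ± 2.75 TPM at 0 h in the wild type (1.17, adjusted p = 0.00648). The KRE9 match AOL_s00043g443, a yeast gene for beta-1,6-glucan, fell between times in the wild type, to 39.8 ± 13.6 TPM at 48 h against 87.2 ± 4.14 TPM at 0 h (-1.17, adjusted p = 0.00698). It was also lower in labelled ΔAorlmA at 0 h (-0.95, adjusted p = 0.0232), a call that both other scalings ended. AOL_s00097g12 is in this list by its SKN1 domain. It also carries a family 16 hydrolase domain and is matched to a glucan endo-1,3-beta-glucosidase. It had 22.1 ± 5.31 TPM in labelled ΔAorlmA and 7.36 ± 2.45 TPM in the wild type at 48 h (1.48, adjusted p = 0.0299). The call was lost without any of 5 single libraries of that comparison.

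Of 19 genes in the list of transfer and anchoring, all tested, 6 rose and 2 fell in labelled ΔAorlmA at 0 h. At 48 h 0 rose and 1 fell, the ecm33 match AOL_s00170g40. The list also caught AOL_s00112g12 by its match to scw1 of S. pombe. Its only listed domain is RRM_1, an RNA-binding domain, so the list is not of transfer and anchoring genes alone. Between times 0 rose and 1 fell in labelled ΔAorlmA and 3 rose and 3 fell in the wild type. The wall glycosidase crf1 match AOL_s00004g376 averaged 2995 ± 506 TPM in labelled ΔAorlmA and 980.4 ± 853 TPM in the wild type at 0 h (2.36, limma adjusted p = 0.0246), with wild-type libraries between 102 and 1807 TPM. The difference was 1.12 without the third wild-type library and 3.18 without the first. Its call ended under quantile normalization, when only those groups were fitted and without the second or the third labelled ΔAorlmA library. The BGL2 match AOL_s00076g566, a yeast glucan hydrolase and transferase, had 174 ± 106 TPM in labelled ΔAorlmA and 37.0 ± 14.8 TPM in the wild type at 0 h (2.09, adjusted p = 0.0166), and lost its call without the first labelled ΔAorlmA or the third wild-type library. The SUN-domain gene AOL_s00117g12 was higher there too, with 72.8 ± 26.0 TPM in labelled ΔAorlmA against 34.1 ± 4.54 TPM in the wild type (1.02, limma adjusted p = 0.0157). It also rose between times in the wild type (0.96, adjusted p = 0.0175). Of the 3 glucan lists, 7 genes passed as higher between strains at 0 h. Without the third wild-type library at 0 h 2 did, and without the first labelled ΔAorlmA library at 0 h 3 did. Which alternatives ended the 0 h calls of AOL_s00117g12, AOL_s00110g20 and AOL_s00043g339 is not given, so they are not shown to be stable. The crf2 match AOL_s00080g193 fell between times in the wild type, to 679 ± 111 TPM at 48 h against 1236 ± 158 TPM at 0 h (-0.87, adjusted p = 0.00705). The meu10 match AOL_s00173g101, a spore wall gene in S. pombe, fell there as well (-2.12, adjusted p = 0.00304) and was lower in labelled ΔAorlmA at 0 h (-1.52, adjusted p = 0.0207), a call lost under both other scalings.

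Of 22 genes of hydrolysis 16 were tested. Between times in the wild type 1 rose and 7 fell, in labelled ΔAorlmA 0 rose and 2 fell, between strains at 0 h 1 rose and 2 fell, and at 48 h 1 rose and 0 fell. The endo-1,6-glucosidase match AOL_s00043g294 had its lowest mean in the 0 h wild type, with 184 ± 93.1 TPM in labelled ΔAorlmA against 277 ± 73.2 TPM in the wild type at 48 h, whereas the 0 h means were 199.7 ± 60.7 TPM in labelled ΔAorlmA against 64.0 ± 9.62 TPM in the wild type. Its strain difference at 0 h was 1.59 (limma adjusted p = 0.00533), its wild-type time difference 2.07 (adjusted p = 0.000639), and its responses differed by -2.27 (adjusted p = 0.0299). The first 2 calls held under every alternative, and the third was lost without any of 8 single libraries. The alpha-glucan hydrolase (mutanase) AOL_s00081g119 fell between times to 1.87 ± 0.783 TPM at 48 h against 7.61 ± 1.22 TPM at 0 h in labelled ΔAorlmA (-1.61, adjusted p = 0.00482) and to 1.10 ± 0.316 TPM at 48 h against 9.12 ± 2.61 TPM at 0 h in the wild type (-2.25, adjusted p = 0.000118). The exo-glucosidase match AOL_s00076g481 fell in the wild type to 14.3 ± 8.79 TPM at 48 h against 98.5 ± 18.3 TPM at 0 h (-2.84, adjusted p = 0.00134) and was lower in labelled ΔAorlmA at 0 h (-2.17, adjusted p = 0.00895). The family 81 endo-glucanase AOL_s00210g33 did likewise from a low level (-1.25, adjusted p = 0.000838, and -0.91, adjusted p = 0.00797), with the 0 h strain call lost under both other scalings. AOL_s00078g575, an endo-glucosidase match, was higher in labelled ΔAorlmA at 48 h (1.33, adjusted p = 0.0414), a call lost without the first or the third labelled ΔAorlmA or any wild-type library of that time.

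**Figure D5:**
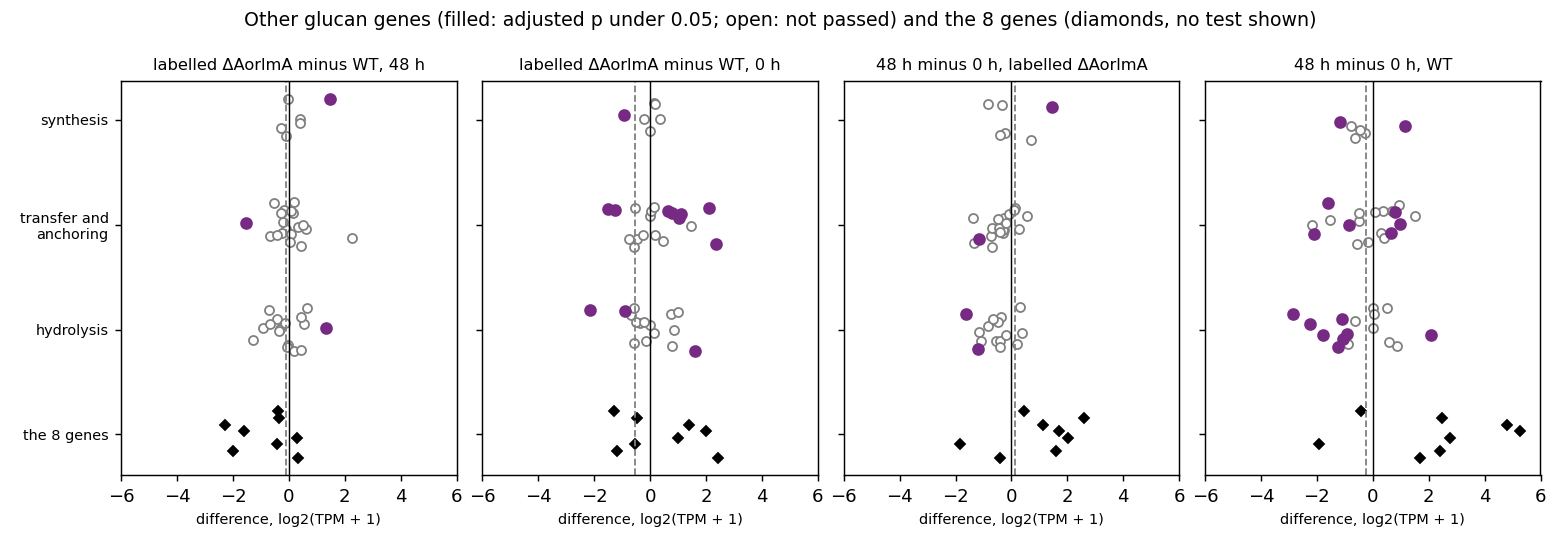
Log2(TPM + 1) differences of the other tested glucan genes by list (filled points passed the limma test at adjusted p under 0.05, open points did not) and of the 8 genes (diamonds) for the 4 comparisons, with the median of all genes as a dashed line. In the wild type between times 11 of the 41 list genes fell and 5 rose, where 28.7% of all genes passed as lower and 17.6% as higher; under quantile normalization 6 fell and 10 rose.

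Over the 3 lists together, 41 of 47 genes were tested. Between strains 2 rose and 1 fell at 48 h (median -0.05, against -0.11 over all genes) and 7 rose and 5 fell at 0 h (median -0.02, against -0.56). Between times 1 rose and 3 fell in labelled ΔAorlmA (median -0.42, against 0.14) and 5 rose and 11 fell in the wild type (median -0.46, against -0.25). These splits moved with the scaling. At 0 h between strains 12 rose and 1 fell under median-of-ratios scaling, and 8 rose and 2 fell under quantile normalization. In the same comparison 2 rose and 3 fell without the third wild-type library at 0 h. Without the first labelled ΔAorlmA library at 0 h 3 rose and 5 fell. In the wild type 8 rose and 11 fell under median-of-ratios scaling, and 10 rose and 6 fell under quantile normalization, so the direction of that balance turned. The difference of the responses passed for 1 gene, AOL_s00043g294.

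The list of the cell wall integrity pathway held 19 genes, 15 of them tested, mostly genes with the WSC domain, found in surface sensors of the pathway in yeast and in other proteins. RHO1, BCK1 and SLT2, the core of the pathway in yeast, were not matched by name, so the counts say little of the pathway itself. RLM1, also searched by name, was not matched either, and AOL_s00078g125 is not in the list. Between strains 1 rose and 1 fell at 48 h and 1 rose and 3 fell at 0 h, and between times 3 rose and 1 fell in labelled ΔAorlmA and 2 rose and 5 fell in the wild type. The WSC gene AOL_s00210g325 rose in both strains, with 6.58 ± 3.0 TPM at 48 h against 1.45 ± 1.24 TPM at 0 h in labelled ΔAorlmA (1.66, limma adjusted p = 0.0161) and 5.11 ± 1.92 TPM at 48 h against 1.01 ± 0.0693 TPM at 0 h in the wild type (1.56, adjusted p = 0.00813). The WSC gene AOL_s00054g549 fell between times in the wild type, to 1.21 ± 0.180 TPM at 48 h against 12.1 ± 1.51 TPM at 0 h (-2.56, adjusted p = 0.0006). In labelled ΔAorlmA it had 6.83 ± 4.95 TPM at 48 h and 5.95 ± 1.85 TPM at 0 h, and its responses differed by 2.53 (adjusted p = 0.04). The list also caught AOL_s00004g399, a chromatin protein by its match, which was lower in labelled ΔAorlmA at 48 h (-2.09, adjusted p = 0.00683) and at 0 h (-1.47, adjusted p = 0.011, lost under median-of-ratios scaling).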

How the data were processed

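Total RNA of hyphae was sequenced in 12 libraries, 3 for each of 4 groups. TPM per gene were deposited by the authors in 1 table, and FPKM with the coding length of each gene in another. The authors' table of raw and clean read counts per library gave the depth. The quantifier, aligner and genome build behind these values were not given in the sources used here, and no coordinates are printed. Gene names come from the annotation columns of the deposited tables, and neighbours were taken by the order of locus numbers. In the table, 8 columns of group means were not used.

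The TPM values were put on the scale log2(TPM + 1), filtered at 1 TPM in at least 3 libraries (9355 of 11479 genes) and fitted with limma 3.58.1 (R 4.3.3, 1 mean per group, eBayes with trend, two-sided, Benjamini-Hochberg over all genes tested, call at adjusted p under 0.05). The fit was also run on simulated data, and no outcome of that run is given or used here. The depth in fragments was found from FPKM steps of genes of 500 to 1500 bases, where 285 to 355 values per library were all whole within 0.15 once 210 to 235 bases were taken from the length, so the values use an effective length.

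The 8 genes and the lists were chosen with earlier results of these data known. Named besides the 8 are, per list and comparison, the 3 called genes with the lowest adjusted p in each direction (for the difference of the responses, 3 in all), the 3 annotated genes most like each of the 8, the 2 neighbours on each side of AOL_s00083g252 and AOL_s00083g253, and, added after values were seen, genes of the same families. Of the genes this rule gives in the integrity list and the list of conidia and spore genes, only part is named. Of the annotated genes most like each of the 8, all 3 are named for FKS1 only. Alternatives were median-of-ratios scaling, quantile normalization, a pseudocount of 0.1, no filter, a filter at 5 TPM, no variance trend, the replicate number as a block, only the 2 groups compared, and leaving out libraries.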

Additional observations from a re-analysis of the deposited data

Results flagged for a closer look

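The 48 h minus 0 h difference in labelled ΔAorlmA, less the same in the wild type, passed adjusted p under 0.05 in the limma fit for 5 genes of the set and its lists. For FKS1 (AOL_s00054g491) it was -2.08: its difference between times was -0.40 in labelled ΔAorlmA and 1.68 in the wild type, and the call was lost without the second or the third wild-type library at 48 h or the second at 0 h. For the glycosyl transferase AOL_s00083g253 it was -3.695, with 1.12 in labelled ΔAorlmA and 4.82 in the wild type, and the third labelled ΔAorlmA library at 0 h, at 10.8 TPM, stood above the other two at 0.40 and 1.51 TPM. Without that library the value was -2.81 and the call was lost. These 2 genes belong to the set chosen with earlier results in view, FKS1 for its strain difference at 0 h, which is a term of this difference. Their calls therefore support nothing, and no p-value is given. For the endo-1,6-glucosidase match AOL_s00043g294 it was -2.269 (limma adjusted p = 0.0299), a call lost without any of 8 single libraries. For the WSC-domain genes AOL_s00006g367 and AOL_s00054g549 it was 2.122 (adjusted p = 0.039) and 2.533 (adjusted p = 0.04), where the median over all genes was 0.34, and both calls were lost under median-of-ratios scaling and quantile normalization. Whether the scaling, the libraries that stand apart or the conidia and spore genes have a part in these was not tested.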

How the results depend on the processing

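Of 40 differences of the 8 genes, 5 changed sign under some alternative, all of them differences that had not passed: gas2 and the glucanase between strains at 0 h and in the difference of the responses, and ecm33 between strains at 48 h. Of 1184 recomputed values of named list genes, 1003 kept their call, 181 lost it and 0 changed direction. Only 2 or 3 libraries a group limit what can pass, and low genes rest on few fragments.

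Counts of all genes called moved by over 1.5 times in each comparison but the wild-type time one. Between strains at 48 h 2234 genes passed, 3989 without both first labelled ΔAorlmA libraries and 484 to 3086 with 1 library left out. Between strains at 0 h 3990 passed (830 higher, 3160 lower), 2374 under median-of-ratios scaling (1341 higher, 1033 lower) and 2000 to 4423 with 1 library left out. Between times in labelled ΔAorlmA 2009 passed, 478 when only those groups were fitted, 3406 without both first libraries and 726 to 3443 with 1 left out. In the wild type 4338 passed, and 3177 to 4970 with 1 left out. For the difference of the responses 414 passed, 260 with a pseudocount of 0.1, 1343 without both first libraries and 17 to 874 with 1 left out.

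Of the 3 glucan lists, 3 genes passed between strains at 48 h (6 without both first libraries, 1 to 4 with 1 left out), 12 at 0 h (5 to 14), 4 between times in labelled ΔAorlmA (8 under median-of-ratios scaling, 2 with a pseudocount of 0.1, 1 with only those groups, 2 to 5 with 1 left out), 16 in the wild type (13 to 19) and 1 for the difference of the responses (2 under median-of-ratios scaling, 2 under quantile normalization, 5 without both first libraries, 0 to 4 with 1 left out). The cause of these moves was not tested.

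Same-numbered libraries did not deviate together in every pair of groups (correlation of deviations -0.316 to 0.188). This cannot tell whether some of them share a batch, which the labels do not state, and the main fit used no replicate block. With the replicate block 2055, 3789, 1766, 4241 and 348 genes passed in the 5 comparisons in the order above, and 3, 12, 4, 16 and 1 of the lists.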
